A study of Mus musculus with 20 samples.

Results

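Control postnatal progenitors and control embryonic progenitors of the mouse, both labelled as brain, were compared at the RNA level. There were 5 arrays against 5, which are 10 of the 20 arrays of the study. The arrays were assigned to the 2 groups by their sample descriptions, with no measured value. Each sample was total RNA of a cell line titled as brain, hybridised to 1 single-colour oligonucleotide array. The other 10 arrays hold embryonic progenitors that carry a genetic modification introduced by transduction and postnatal progenitors described as transformed, and they give a second age comparison. They also enter the fit behind every call between the controls, through the shared estimate of spread and the choice of probe set. The labels give no strain, exact age, brain region, culture medium or passage, and neither the introduced sequence nor the transforming agent is named. Neither control group is described as carrying any modification. Differences of age, region of origin, culture and preparation therefore cannot be told apart here. The labels do not say that the 5 samples of a group came from separate cultures, and what the p-values measure is no more than their spread, which may be technical.

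Neural progenitors carry a record of where along the body axis they arose, kept mainly by homeobox transcription factors. The Hox genes, which lie in 4 clusters, are used from the hindbrain to the end of the spinal cord and are silent in the forebrain and midbrain, where Otx, Emx, Gsx and Dlx factors are used in their place. Progenitors also change with time. Early ones are kept immature by Notch and Hedgehog signals and by RNA-binding and chromatin proteins such as Lin28b and Hmga2, and later ones turn to making astrocytes and oligodendrocytes, the latter through progenitors that carry Pdgfra and Sox10 and then through premyelinating cells that switch on Myrf and the myelin genes.

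Both groups carried markers of glial and neural progenitors. Olig2, a basic helix-loop-helix factor of the oligodendrocyte lineage, had mean signals of 70639 in the embryonic and 69691 in the postnatal controls, and the stem cell factor Sox2 had 45708 and 61414. A signal here is the deposited intensity of the probe set that represents a gene. A background level was taken on each array from control probe sets for bacterial transcripts. It lay between 120 and 214, and 62.6% to 70.5% of probe sets were above it. The markers of the postnatal cells (Scrg1, Sparcl1, S100b, Bmp4, Sox10) and of the embryonic cells (Hoxa9, Hoxa7, Gli3) were those by which the comparison had been proposed, so their direction was known. The small number of arrays limits the precision. The log2 ratio of the 3' over the 5' control signal, which is higher in degraded RNA, was lower in the postnatal controls for Gapdh (-0.51 to -0.41, against -0.43 to -0.32 in the embryonic controls) and for Actb (0.20 to 0.29 against 0.30 to 0.35). Its part in the results below was not tested.

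Of 18193 genes, 1925 were called between the controls (10.6%), 884 higher in the postnatal cells (4.86%) and 1041 lower (5.72%). The signals of the 2 groups did not overlap for 4043 genes (22.2%), so a lack of overlap was common. A gene was called at an adjusted p under 0.05 in limma with a change of at least 2-fold, and "rose" and "fell" below always mean postnatal against embryonic and called. Log2 changes are on the scale log2(signal + 16), with their standard error, and the median over all genes was -0.04. The postnatal arrays were not alike. Arrays 4 and 5 read apart from arrays 1 to 3 for dividing-cell and myelin genes, and no label sets them apart. The comparison was therefore repeated without them, which called 1367 genes (7.51%), 700 higher (3.85%) and 667 lower (3.67%). Of the 1925 genes, 1183 were called the same way in both fits and 742 only with all 10 arrays, 459 of these lower in the postnatal cells.

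The largest difference between the groups by fitted size was in the Hox genes, which fell. Of 33 measured Hox genes 24 fell and none rose, with a median log2 change of -2.97, or -2.54 with genes below background taken at their bound, against -0.04 over all genes. Hoxa9, on chromosome 6, had signals of 11449, 10737, 9786, 11664 and 11358 on embryonic arrays 1 to 5 and of 10.96, 32.1, 14.5, 44.2 and 119 on postnatal arrays 1 to 5. All 5 embryonic arrays were bright, and all 5 postnatal arrays were below background. Hoxa9 fell at least 74.0-fold (limma adjusted p = 3.62e-12). Such a bound compares the mean of the bright group, on the log2 scale, with the background of the dim one. Hoxa7, its neighbour in the same cluster, had 6403, 7610, 7562, 6899 and 6894 in the embryonic controls and 42.9, 37.2, 30.8, 56.0 and 28.9 in the postnatal controls. It fell at least 47.6-fold (limma adjusted p = 3.2e-18). The next largest bounds among these genes were those of Hoxc8 (at least 35.8-fold), Hoxb6 (at least 33.7-fold), Hoxa10 (at least 22.5-fold) and Hoxb9 (at least 13.05-fold), all of them smaller and each below background on all 5 postnatal arrays.

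The promoters of Hoxa9 and Hoxa7 are shown because these are the Hox genes with the largest fitted falls. They are RefSeq sequences of build GRCm38.p6, from 250 bases before to 50 bases after the start of the gene and on its own strand, at chr6:52227321-52227620 (minus strand) for Hoxa9 and chr6:52218524-52218823 (minus strand) for Hoxa7. Capitals mark TTTATG, letters of the type that posterior Hox and Cdx proteins bind.
Hoxa9: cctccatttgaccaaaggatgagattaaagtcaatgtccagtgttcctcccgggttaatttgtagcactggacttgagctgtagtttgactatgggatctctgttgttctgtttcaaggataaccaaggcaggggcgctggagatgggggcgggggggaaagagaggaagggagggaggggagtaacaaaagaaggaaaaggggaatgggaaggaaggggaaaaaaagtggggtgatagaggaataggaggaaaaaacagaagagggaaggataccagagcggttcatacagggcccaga
Hoxa7: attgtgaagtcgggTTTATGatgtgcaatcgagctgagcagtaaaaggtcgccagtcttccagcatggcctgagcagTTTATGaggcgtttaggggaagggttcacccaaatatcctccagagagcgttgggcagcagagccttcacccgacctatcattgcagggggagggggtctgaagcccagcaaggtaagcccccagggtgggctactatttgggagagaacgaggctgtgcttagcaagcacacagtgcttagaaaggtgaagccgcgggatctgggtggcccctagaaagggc
The Hoxa7 window holds TTTATG 2 times and the Hoxa9 window does not hold it, both strands searched. Of 32851 promoters of the same length, 11.9% held it, and of the 14 promoters listed for 13 of the 24 called Hox genes 14.3% did. The 2 windows differ in CpG dinucleotides, with 4 in Hoxa9 and 9 in Hoxa7, against a median of 7 over all promoters and 14.5 over those of the called Hox genes. A match is a description of the letters, not a binding site.

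**Figure D1:**
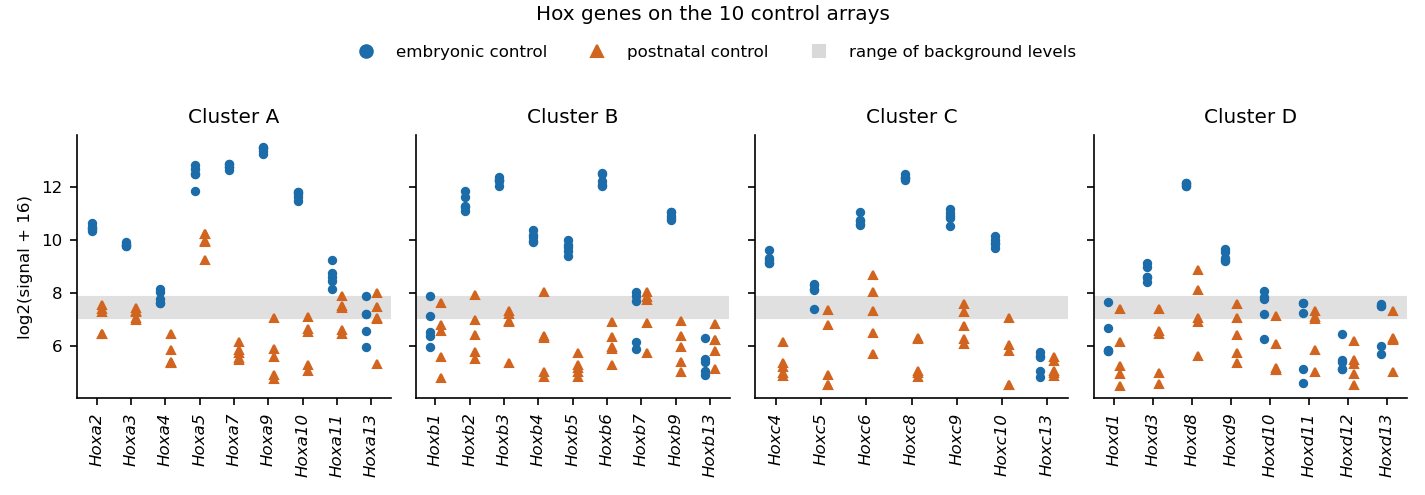
Signals of the 33 measured Hox genes on the 10 control arrays, as log2(signal + 16) on the vertical axis, in 4 panels by cluster and in order of paralogue group along the horizontal axis. Circles are embryonic and triangles postnatal arrays, and the grey band spans the background levels of the 10 arrays. Circles stand above the band for most genes up to paralogue group 10, while triangles lie in or below it except at Hoxa5 and at some arrays of other genes.

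All 4 clusters took part. In cluster A 8 of 9 measured genes fell, in cluster B 6 of 9, in cluster C 6 of 7 and in cluster D 4 of 8. By position within a cluster, 23 of the 24 measured genes of paralogue groups 2 to 10 fell, and of the 9 measured genes of groups 1 and 11 to 13 only Hoxa11 did. Some of these calls were of dim genes whose bounds were under 2-fold. They were Hoxd10 (at least 1.06-fold, 3 embryonic arrays above background), Hoxa4 (at least 1.46-fold) and Hoxc5 (at least 1.70-fold). The member of groups 2 to 10 that was not called was Hoxb7, above background on 3 of 5 arrays in each group (mean signals 153 and 161). Anterior members fell with posterior ones. Hoxa2, the factor of the second branchial arch, had a mean signal of 1427 in the embryonic and 123 in the postnatal controls, where it was above background on 1 array. Hoxb2 went from 2789 to 96.4 (1 array), Hoxb3 from 4846 to 103 (2 arrays) and Hoxd8 from 4437 to 196 (2 arrays). The Hox gene that stayed above background on all 5 postnatal arrays was Hoxa5. Its signals were 7369, 3723, 6559, 5839 and 5767 in the embryonic controls and 1209, 996, 1207, 979 and 596 in the postnatal controls. The groups did not overlap, and Hoxa5 fell by 2.54 ± 0.20 on the log2 scale (limma adjusted p = 2e-09). The count was again 24 of 33 without postnatal arrays 4 and 5. In bulk samples, fewer cells that express a gene and less RNA of it per cell cannot be told apart. The titles name brain as the source of both groups. Hox genes up to paralogue group 10 were bright in the embryonic cells, and where these cells arose was not tested.

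The TALE cofactors, homeodomain proteins that bind DNA beside Hox proteins, moved less. Of 8 measured, 3 fell and none rose, with Meis1 at -1.92 ± 0.12 and Pbx3 at -1.34 ± 0.10. A second, dimmer Meis1 probe set read -0.67, so the size for this gene depends on the probe set.

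Some transcription factors of the forebrain were higher in the postnatal cells, though the list as a whole was not. Of 29 measured, 6 rose, 2 fell and 21 were not called, and the 6 were Emx2, Otx1, Gsx1, Gsx2, Dlx1 and Dlx2. Emx2, which patterns the cerebral cortex, had signals of 138, 141, 237, 125 and 174 in the embryonic and of 1894, 2183, 1779, 2157 and 2293 in the postnatal controls. All 5 postnatal arrays were bright, and 2 of 5 embryonic arrays were above background. Otx1, a head-gap type homeobox factor, was below background on all 5 embryonic arrays and had 1058, 1193, 396, 497 and 406 in the postnatal controls, at least 3.79-fold higher (limma adjusted p = 1.68e-08). Gsx1, a factor of the ventral telencephalon, went from a mean signal of 215, above background on 3 arrays, to 1867. Dlx1 and Dlx2, used by the interneuron progenitors of the ventral telencephalon, were dimmer. Dlx2 had mean signals of 127 (1 array above background) and 691, and Dlx1 of 10.8 and 223, above background on 4 postnatal arrays. The bound for Dlx1 was only at least 1.04-fold. Among genes above background on at least 5 arrays, 5 of 18 forebrain factors rose. The median over the 29 factors was -0.06, near that of all genes. Otx2, which is used in forebrain and midbrain, was below background on all 10 arrays. The 2 that fell were Nr2f2 (-1.67 ± 0.14) and Pax6 (-1.32 ± 0.19), the latter at -0.88 and no longer called without postnatal arrays 4 and 5. The promoter of Emx2 is shown beside those of the Hox genes, as that of the forebrain factor with the smallest p.
Emx2: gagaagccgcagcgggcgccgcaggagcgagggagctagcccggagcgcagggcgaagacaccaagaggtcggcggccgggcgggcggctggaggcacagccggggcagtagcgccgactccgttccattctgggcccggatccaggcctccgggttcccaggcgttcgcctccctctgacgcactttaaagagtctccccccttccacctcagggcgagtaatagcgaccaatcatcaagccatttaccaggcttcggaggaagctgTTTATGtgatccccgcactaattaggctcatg
It lies at chr19:59458440-59458739 (plus strand, GRCm38.p6), holds 26 CpG dinucleotides and has TTTATG, in capitals, 1 time.

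Factors of the midbrain, hindbrain, spinal cord and dorsal midline were lower. Of 30 measured, 10 fell and 1 rose, with a median of -0.56. Zic1, a zinc finger factor of dorsal neural tissue and cerebellum, had signals of 18859, 17874, 18204, 18489 and 17731 in the embryonic and of 1095, 2265, 1407, 1182 and 1214 in the postnatal controls. It was above background throughout, the groups did not overlap, and it fell by 3.71 ± 0.20 (limma adjusted p = 1.14e-11). The Iroquois factors fell together. Irx5 went from a mean signal of 2697 to 151 (2 postnatal arrays above background), Irx3 from 1694 to 157 (3 arrays) and Irx2 had a log2 change of -2.69 ± 0.17 (4 arrays). Gbx2, which marks the anterior hindbrain, went from 1513 to 183 (3 arrays). Nkx6-1, a ventral spinal cord and hindbrain factor, fell at least 2.77-fold, and En1, of the midbrain-hindbrain border and above background on 4 embryonic arrays, at least 1.44-fold. The factor that rose was Egr2, which is used in hindbrain segments and in myelinating Schwann cells and is also an immediate early gene (1.71 ± 0.20). A second Egr2 probe set read 0.53. Without postnatal arrays 4 and 5, 8 factors of this list fell and 1 rose, and of the forebrain factors 6 rose and 1 fell.

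**Figure D2:**
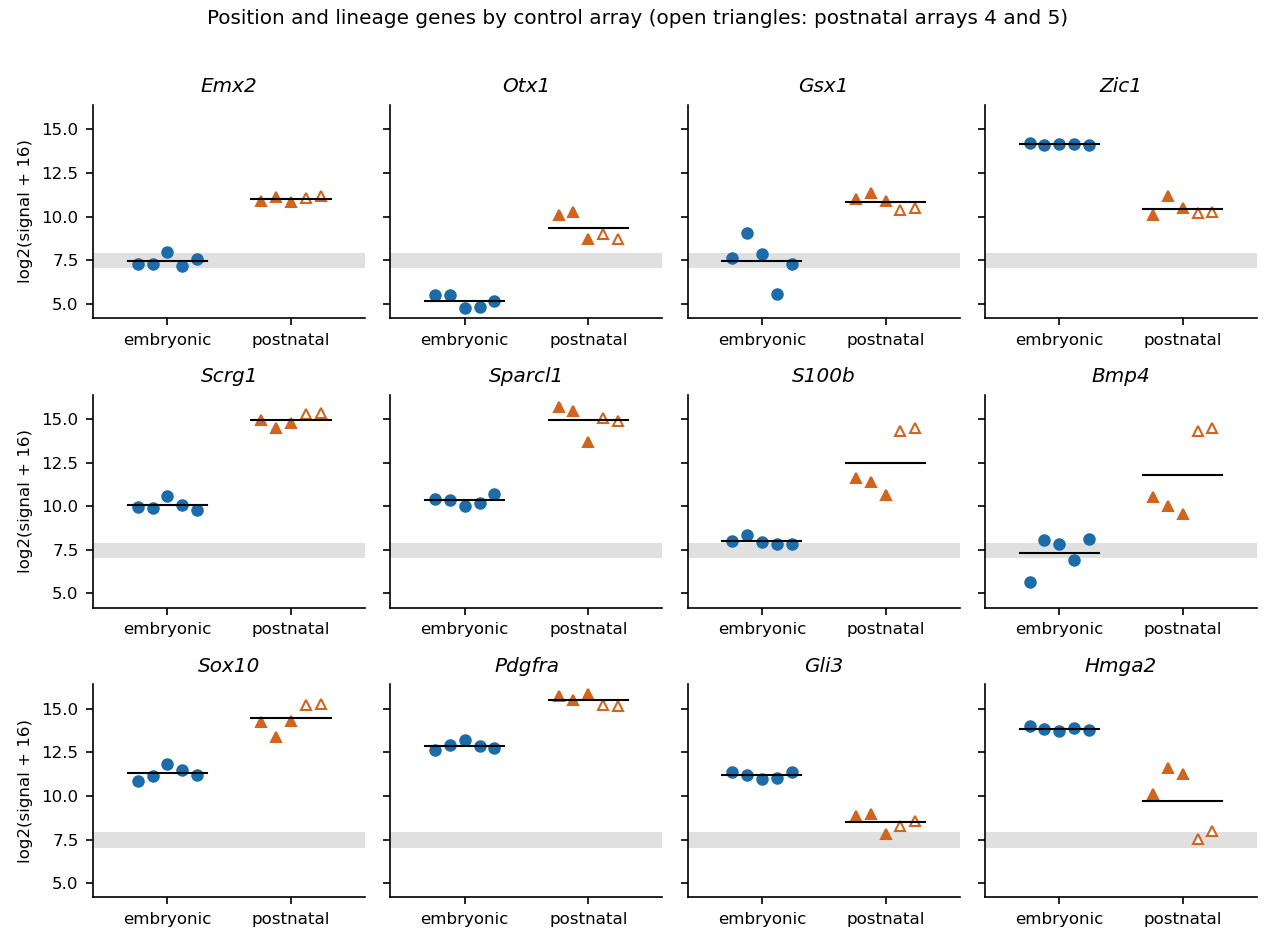
Level of 12 position and lineage genes on each control array, as log2(signal + 16), with embryonic arrays as circles and postnatal arrays as triangles. Open triangles are postnatal arrays 4 and 5, lines are group means and the grey band is the range of background levels. The 5 postnatal arrays differed less for Emx2, Scrg1 and Zic1 than for S100b, Bmp4 and Hmga2, which read far apart on arrays 4 and 5. Scrg1 was also highest on arrays 4 and 5.

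Genes of oligodendrocyte progenitors were higher in the postnatal cells. Of 23 measured, 14 rose and none fell, with a median of 1.09. Pdgfra, the receptor through which platelet-derived growth factor drives these progenitors, had signals of 6308, 7706, 9603, 7608 and 6923 in the embryonic and of 55306, 47447, 59138, 38111 and 37323 in the postnatal controls. The groups did not overlap, and it rose by 2.62 ± 0.19 (limma adjusted p = 5.3e-10). Sox10, a transcription factor of the oligodendrocyte lineage (chromosome 15), had 1807, 2283, 3644, 2914 and 2358 against 19082, 10721, 20093, 37463 and 39456. It rose by 3.16 ± 0.30, with the highest signals on postnatal arrays 4 and 5. Rlbp1, a retinaldehyde-binding protein, was bright on all postnatal arrays and rose by 4.29 ± 0.33, the adhesion protein Cntn1 by 1.503 ± 0.07 and Lhfpl3 by 1.09 ± 0.12. Gpr17, a receptor of progenitors about to differentiate that was chosen after its values were seen, had 22012, 6777, 13443, 67318 and 69477 on postnatal arrays 1 to 5, against a mean of 1434. Lims2, a focal adhesion protein, was above background on 4 embryonic arrays and rose by 4.37 ± 0.60.

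The factors that act earliest in the lineage moved little. Olig1 and Olig2, which specify the lineage, were not called (-0.13 ± 0.06 and -0.02 ± 0.06) and were above background on all 10 arrays. Nkx2-2, another factor of the lineage, rose by 1.15 ± 0.30 with all arrays. It was at 0.95 without postnatal array 4, at 0.90 without array 5 and at 0.55 without both, and was called in none of these. Without postnatal arrays 4 and 5, 9 of the 23 oligodendrocyte progenitor genes rose and none fell. Pdgfra was then at 2.83 and Sox10 at 2.66, while Lhfpl3 was at 0.89 and not called.

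Premyelinating and myelin genes also rose, and here arrays 4 and 5 stood furthest out. Of 20 measured, 13 rose and none fell (median 1.75, or 1.55 with genes below background at their bound), and without arrays 4 and 5 the count was 8. Myrf, the transcription factor that switches on myelin genes, had 54.0, 100, 78.3, 302 and 195 in the embryonic controls, 2 of them above background, and 1282, 1437, 925, 9254 and 9640 in the postnatal controls. The mean was 1215 on postnatal arrays 1 to 3 and 9447 on arrays 4 and 5, so all 5 lay above every embryonic array and the last 2 well above the rest. Ugt8a, the enzyme of galactolipid synthesis for myelin, rose by 2.79 ± 0.22 and the tight junction protein Cldn11 by 3.67 ± 0.49. Bcas1, which marks premyelinating cells, rose by 1.94 ± 0.22 and the deacetylase Sirt2 by 2.06 ± 0.32. Mbp, the basic protein of compact myelin and chosen after its values were seen, had 1592, 1443, 1546, 6055 and 6971 on postnatal arrays 1 to 5 against a mean of 811. It rose by 1.76 ± 0.36 with all arrays and was at 0.93 without arrays 4 and 5, no longer called.

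Several astrocyte genes were higher as well. Of 29 measured, 12 rose and 1 fell, with a median of 0.48. Scrg1 (chromosome 8), a secreted protein of glial cells first found in scrapie-infected brain, had 997, 942, 1556, 1042 and 878 in the embryonic and 31337, 22983, 28106, 40527 and 41270 in the postnatal controls. It rose by 4.90 ± 0.17 (limma adjusted p = 6.34e-15), and even the lowest postnatal array, at 22983, was far above the highest embryonic one, at 1556. Sparcl1 (chromosome 5), a matricellular protein that astrocytes release at synapses, had 1366, 1314, 1012, 1163 and 1657 against 53935, 45791, 13190, 33713 and 30362. It rose by 4.62 ± 0.25, with postnatal array 3 the lowest. S100b, a calcium-binding protein of astrocytes and of the oligodendrocyte lineage (chromosome 10), had 243, 314, 235, 214 and 212 against 3184, 2696, 1591, 20293 and 23080. It rose by 4.50 ± 0.51 with all arrays and by 3.23 without arrays 4 and 5.

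Gfap, the intermediate filament of astrocytes, was below background on all 5 embryonic arrays. Its postnatal signals were 21873, 2843, 318, 976 and 1163, so array 1 was far above the others. It rose at least 11.2-fold (limma adjusted p = 0.00116). The bound was 6.03-fold without postnatal array 1 and 17.4-fold without array 3. Apoe, the lipid carrier of astrocytes, had 99062, 64929, 14651, 46457 and 45746 in the postnatal controls against a mean of 4188, and Ndrg2 rose by 1.70 ± 0.15. Postnatal array 3 was the lowest of the 5 for Sparcl1, Gfap, Apoe and Ndrg2. The astrocyte gene that fell was Fgfr3, a growth factor receptor of radial glia and astrocytes (-1.31 ± 0.15). Without arrays 4 and 5, 11 astrocyte genes rose and 2 fell.

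Genes of neural stem cells and radial glia were lower. Of 22 measured, 8 fell and 2 rose, with a median of -0.83. Tnc, the matrix protein tenascin C of radial glia, had 49429, 51175, 42913, 49534 and 56337 in the embryonic and 3226, 3707, 1869, 4303 and 4291 in the postnatal controls. The groups were far apart on every array, and Tnc fell by 3.89 ± 0.16. Nes, the intermediate filament of neural progenitors, had 11611, 10519, 8644, 9240 and 8920 against 4095, 4640, 4829, 1706 and 648. The groups did not overlap, and postnatal arrays 4 and 5 were the lowest. Nes fell by 1.94 ± 0.36 with all arrays and was at -1.11 without these 2, again called. The 2 that rose were Ednrb, the endothelin receptor B of glial progenitors (1.93 ± 0.11), and Nr2e1. Nr2e1, the forebrain stem cell receptor also called Tlx, was named after its values were seen and was above background on 1 embryonic array (mean signals 159 and 502). Its call was lost when any of embryonic arrays 1, 2 and 5 or postnatal arrays 1 to 4 was left out, with values between 1.37 and 1.53. On the arrays without postnatal 4 and 5, 5 genes of this list fell and 2 rose.

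A minority of the genes that time development fell. Of 15 measured, 5 fell and 1 rose (median -0.52, or -0.01 with genes below background at their bound). Hmga2, a chromatin protein of fetal stem cells, had 16340, 14438, 13775, 15550 and 14190 in the embryonic and 1090, 3113, 2407, 166 and 238 in the postnatal controls. All postnatal arrays were lower, and arrays 4 and 5 lowest. It fell by 4.16 ± 0.52 with all arrays and was at -2.87 without these 2, again called. Igf2bp3, a fetal RNA-binding protein, was even over the postnatal arrays and fell by 2.81 ± 0.27. Trim71 went from 313 to 60.0 (1 postnatal array above background) and Igf2bp1 from 503 to 202 (3 arrays). The groups overlapped for Igf2bp1, and its call was lost in the fit on the 10 control arrays (limma adjusted p = 0.0532). Lin28b, the let-7 inhibitor, was dim even in the embryonic cells (140, 2 arrays, against 22.9 and no array). Its embryonic mean lay within the range of background levels, so the size of its change is uncertain. The gene that rose was Zbtb20, a factor of postnatal astrocytes and hippocampus (1.56 ± 0.16), and its other probe sets read 0.92 and 0.83. Without arrays 4 and 5 the same counts, 5 and 1, were called.

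Among 24 imprinted genes 5 fell and 3 rose. Grb10, a growth-restraining adaptor of insulin and growth factor receptors, had 26841, 33333, 26511, 27216 and 26107 against 1199, 1092, 1234, 1106 and 1010. Neither group spread much, and Grb10 fell by 4.61 ± 0.11 (limma adjusted p = 9.1e-18). Mest, a fetal growth gene, fell by 2.82 ± 0.30 and was lowest on postnatal arrays 4 and 5, and Igf2, the fetal growth factor, went from 717 to 135 (2 postnatal arrays above background). Peg3 was at -0.69 ± 0.06 and was not called. Among 24 neuronal genes 5 rose and 3 fell, or 2 and 2 without postnatal arrays 4 and 5. Nsg2, an endosomal protein of young neurons, rose by 1.77 ± 0.07, and Gad1, the enzyme that makes GABA, went from 177 (3 embryonic arrays) to 2231. Stmn2, a marker of growing axons, went from 635 to 89.6 (1 postnatal array).

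Of the signalling pathways examined, Hedgehog genes were lower as a group. Hedgehog ligands act through the receptor Ptch1 and its partner Smo, with Cdon, Boc and Gas1 as co-receptors and the Gli proteins as transcription factors. Of 16 measured, 8 fell and none rose (median -0.93, or -0.56 with genes below background at their bound). Of the ligands, Shh was dim and fell by 1.38 ± 0.37 (4 postnatal arrays above background). It was at -0.92 and not called with the mean of its probe sets. All 3 co-receptors fell, with log2 changes of -2.63 ± 0.15 for Cdon, -2.02 ± 0.24 for Gas1 and -1.94 ± 0.17 for Boc. A dimmer second Cdon probe set read -0.87. Smo fell by 1.18 ± 0.10 on its brightest probe set and was at -0.50, not called, with the mean of its probe sets. Gli3, the Gli protein that acts mainly as a repressor (chromosome 13), had 2605, 2359, 2037, 2052 and 2613 in the embryonic and 449, 478, 214, 294 and 362 in the postnatal controls. The groups did not overlap, and Gli3 fell by 2.69 ± 0.17 (limma adjusted p = 1.32e-10). Gli1, a target and readout of the pathway, was above background on 4 embryonic arrays and on no postnatal array and fell at least 1.37-fold. The other target measured, Ptch1, was at -0.33 ± 0.06 and was not called. Without postnatal arrays 4 and 5, 7 genes of the list fell and none rose. With the mean of all probe sets 6 fell and 1 rose.

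BMP genes did not move as a group, with 2 of 30 measured higher and 2 lower (median -0.08). BMP ligands turn progenitors toward astrocytes and away from oligodendrocytes. The ligand Bmp4 (chromosome 14) had 34.9, 250, 211, 103 and 261 in the embryonic controls, 3 of them above background, and 1442, 1020, 752, 20760 and 22945 in the postnatal controls. Postnatal arrays 4 and 5 (mean 21852) stood far above arrays 1 to 3 (mean 1071), which in turn lay above every embryonic array. The target Id4 rose by 1.38 ± 0.31. The pseudoreceptor Bambi fell by 1.48 ± 0.16, and the inhibitor Smad6 was above background on 4 embryonic arrays (mean 254) and on 1 postnatal array (98.7).

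Notch genes were lower at several levels of the pathway, with 7 of 24 measured lower and 1 higher (median -0.44). The receptors Notch2 and Notch3 fell (-1.74 ± 0.20 and -1.29 ± 0.17). Among targets, Nrarp, a feedback inhibitor, fell by 2.29 ± 0.13. Hes1 and Hes5, the repressors through which Notch holds progenitors immature, fell as well (-2.65 ± 0.28 and -2.38 ± 0.27). The target Hey2 rose by 1.52 ± 0.40 from near background (2 embryonic and 4 postnatal arrays above it) and was named after its values were seen. With postnatal arrays 4 and 5 left out, 5 genes fell and 1 rose, which was not Hey2 (1.27, not called). The probe sets of Notch2 differ, and with their mean it was at -0.96 and not called.

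Growth factor receptors and ligands of the FGF, PDGF and EGF families changed both ways, 4 of 27 higher and 5 lower. Beside Pdgfra, the EGF receptor ligand Tgfa rose by 2.998 ± 0.26. The receptor Erbb2 (-2.08 ± 0.18) and the ligand Fgf1 (-1.47 ± 0.17) fell.

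Genes of cell division were lower in the mean of the postnatal cells, and this rested on arrays 4 and 5. Of 21 mitosis genes 20 fell (median -1.497), and of 25 DNA replication genes 13 fell (median -1.03). None of either list rose. Kif23, a kinesin of cytokinesis, had 9207, 9459, 8847, 9502 and 9059 in the embryonic controls and 6652, 5713, 5730, 1123 and 860 in the postnatal controls. Arrays 1 to 3 were somewhat below the embryonic arrays and arrays 4 and 5 far below them. Mki67, the standard marker of cycling cells, had a mean of 34799 in the embryonic controls, of 35968 on postnatal arrays 1 to 3 and of 5140 on arrays 4 and 5. It was at -1.08 ± 0.44 with all arrays and was not called. It was called when postnatal array 1, 2 or 3 was left out, at -1.35 to -1.37.

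Without postnatal arrays 4 and 5 no mitosis gene and no replication gene was called, and the medians were -0.34 and -0.15. Small differences within that fit remained, such as -0.61 ± 0.09 for Kif23 and -0.50 for Pola1, the catalytic subunit of the primase polymerase, under the 2-fold limit. The counts also depend on the spread that the fit shares over all 20 arrays. Fitted on the 10 control arrays alone, 1 mitosis gene and 1 replication gene were called. Leaving out array 4 or array 5 alone left 11 mitosis genes and 1 replication gene. Of replication genes, 8 were called without embryonic array 1 and between 20 and 21 without postnatal array 1, 2 or 3. Of 20 G1 cyclins, their kinases and inhibitors 2 fell, Cdk2 and E2f1, and none rose (median -0.37). Without postnatal arrays 4 and 5 none fell and 2 rose, the cell-cycle inhibitors Cdkn1a (1.62) and Cdkn2a (1.30), and the median was 0.016. These 4 genes were named after their values were seen.

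**Figure D3:**
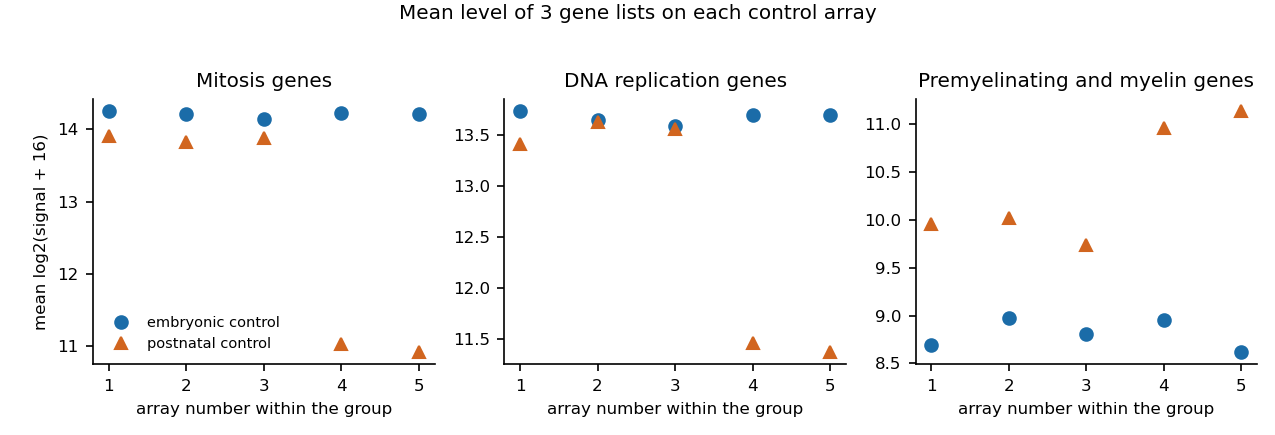
Mean log2(signal + 16) of the 21 mitosis, 25 DNA replication and 20 premyelinating and myelin genes on each control array, with the array number within the group on the horizontal axis and a separate vertical scale in each panel. The mitosis mean was 14.1 to 14.3 on the embryonic arrays, 13.8 to 13.9 on postnatal arrays 1 to 3 and 11.04 and 10.92 on arrays 4 and 5. The myelin mean was 8.62 to 8.97 on the embryonic arrays, 9.74 to 10.02 on postnatal arrays 1 to 3 and 10.96 and 11.1 on arrays 4 and 5.

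The mean level of the mitosis list on postnatal arrays 1 to 5 was 13.9, 13.8, 13.9, 11.04 and 10.92, and that of the myelin list 9.96, 10.02, 9.74, 10.96 and 11.1. The arrays that read low for mitosis were thus those that read high for myelin. Arrays 4 and 5 were set apart for these same genes, so the loss of division and myelin calls without them is no separate evidence. The position lists lost at most 2 called genes each, the oligodendrocyte and myelin lists kept their direction with fewer genes called, and the division lists had no called gene.

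**Figure D4:**
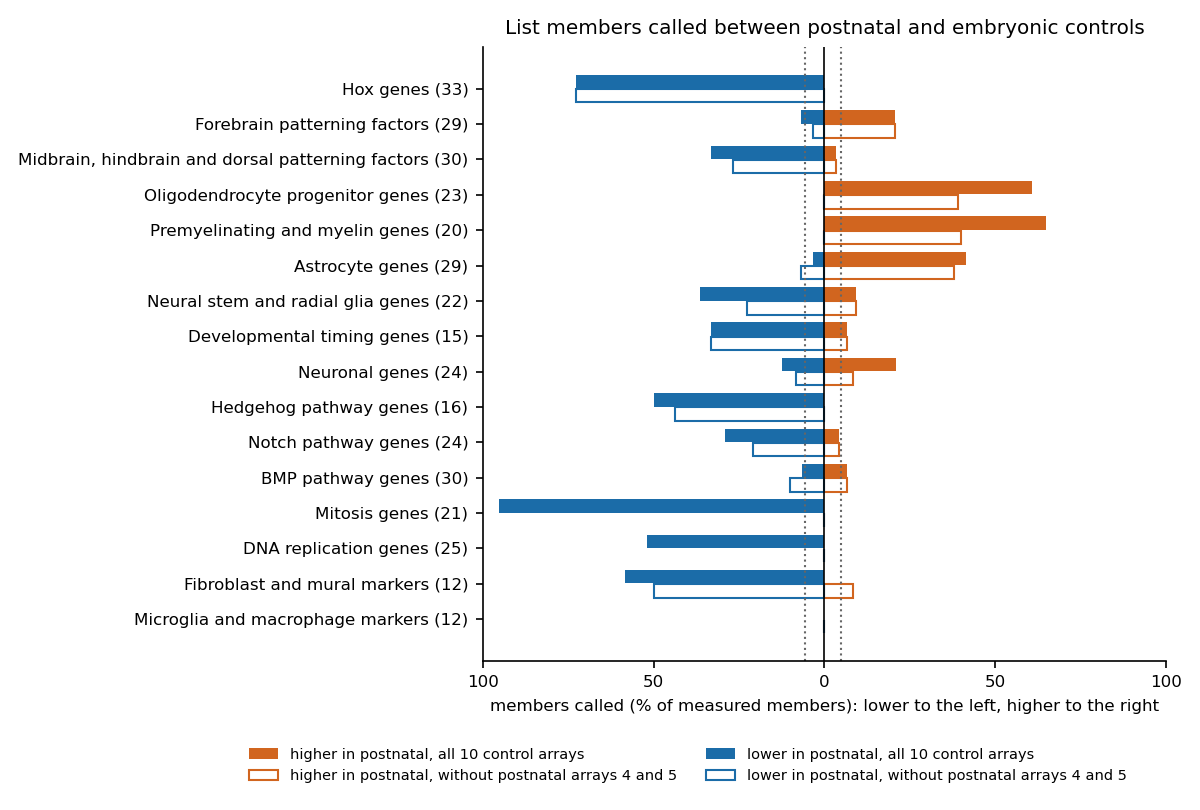
Share of measured members called lower (left, blue) and higher (right, orange) in the postnatal controls, in percent, for 16 gene lists with the number measured in parentheses. Filled bars are the fit with all 10 control arrays, open bars the fit without postnatal arrays 4 and 5, and dotted lines mark the 5.72% lower and 4.86% higher over all genes. The open bars equal the filled ones for Hox genes and are missing for mitosis and DNA replication genes.

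Other genes with large fitted changes lay outside these lists. Among the 12 largest rises of genes with a name, clone and gene-model names left aside, were the neuronal cell-cycle inhibitor Brinp1 (mean signal 229, above background on 3 arrays, to 5599), the glutamate transporter Slc1a1 (4.42 ± 0.36), the adaptor Afap1l2 (4.40 ± 0.23), the carbonic anhydrase-related protein Car8 (4.31 ± 0.21) and Tmem163 (118, 1 array, to 2366). Among the 12 largest falls were Fndc3c1 (4297 to 87.7, 2 postnatal arrays), the synaptotagmin Syt13 (at least 15.1-fold) and the laminin chain Lamb1 (6598 to 227, 3 arrays). Matrix genes moved both ways, 5 of 23 higher and 6 lower. With Lamb1 and Tnc fell Sparc, a collagen-binding matricellular protein (-3.51 ± 0.17, although a dim second probe set read 0.06), and the basement membrane linker Nid1 (1098 to 193, 3 arrays), while its relative Sparcl1 rose.

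Markers of other cells moved with the groups in part. Of 12 fibroblast and mural markers 7 fell and none rose, while without postnatal arrays 4 and 5 6 fell and 1 rose. Their summed signal was 17388 to 34775 in the embryonic and 7790 to 15151 in the postnatal controls. Acta2 and Tagln, actin and an actin-binding protein of contractile cells, went from 12604 to 846 (-3.85 ± 0.22) and from 2708 to 76.5 (1 postnatal array above background). Fibronectin (Fn1) fell by 3.09 ± 0.36, Col3a1 at least 3.63-fold and Postn at least 2.86-fold. The defining pericyte gene Pdgfrb was above background on 1 of the 10 arrays. The part of such cells in the lower matrix genes was not tested. Of 12 microglia and macrophage markers none was called. Their summed signal was 1686 to 2088 and 1237 to 1863, and Aif1, Itgam, C1qa and C1qc were below background on all 10 arrays. Of 9 endothelial markers 1 was called, lower (sums 1003 to 1437 and 570 to 1180). That marker, Tek, and Pecam1 were both below background on all 10 arrays. Of 8 ependymal markers Hydin fell (sums 2203 to 3357 and 852 to 2663), a call lost with the mean of its probe sets (-0.80), and 2 markers fell without postnatal arrays 4 and 5. Of 9 Schwann cell and neural crest markers Egr2 and Cdh19 rose and Tfap2b fell (sums 2920 to 4432 and 6391 to 11529).

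Sex-linked transcripts were read on arrays of both groups. Xist, made by the inactive X chromosome, had mean signals of 12495 in the embryonic and 35987 in the postnatal controls (1.54 ± 0.12). The Y-linked Kdm5d had 3003 and 1290 (-1.23 ± 0.36), with a second probe set at -0.31 and no call with the mean of its probe sets (-0.58), and Eif2s3y 4156 and 3568, not called. Of the 4 measured 1 rose and 1 fell, and the labels give no sex. The part of a different mixture of sexes in other results was not tested. Interferon response genes had 2 of 17 higher and 2 lower, among the latter Bst2 (at least 4.21-fold). Of 10 genes of MHC class I presentation, H2-K1 fell (-1.82 ± 0.10) and the others were not called, and its other probe sets read -0.59 and -0.30.

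The modified cells gave a second age comparison, on signals from the other 10 arrays. The spread estimate and the probe sets were shared with the control comparison. Transduction and transformation may themselves differ, and this comparison cannot separate that from age. Sex-linked transcripts differed here as well, since all 4 measured were called higher in the transformed cells. The Y-linked Eif2s3y had mean signals of 119 in the transduced cells, below background on all 5 arrays, and 3272 in the transformed cells, and Kdm5d had 90.6 (1 array above background) and 906. The part of this in the comparison was not tested. Postnatal transformed against embryonic transduced cells, 4634 of 18193 genes were called (25.5%), 2135 higher (11.7%) and 2499 lower (13.7%). Of the 1925 genes called between the controls, 1052 were called the same way, 515 higher and 537 lower, which is 54.6% of the control calls and 22.7% of the modified ones. A further 156, or 8.10% of the control calls, were called the opposite way. Of the 1367 genes called without postnatal control arrays 4 and 5, 707 were called the same way in both comparisons, 421 higher and 286 lower. Leaving out 1 control array gave 846 to 1156 shared genes.

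The Hox genes and the oligodendrocyte genes were mostly shared in direction, though often not in size. Of the 24 Hox genes that fell between the controls 22 fell between the modified cells, and of the 14 oligodendrocyte progenitor genes that rose 13 rose. Hoxa9 had mean signals of 38495 in the transduced and 75.4 in the transformed cells, where it was above background on 1 array. Hoxa7 had 1632 and 730 and fell by 1.14 ± 0.15, against at least 47.6-fold between the controls. Sizes differed both ways for other Hox genes. On the fitted log2 scale Hoxc8 was at -3.31 here and -6.89 between the controls, and Hoxb6 at -2.58 and -6.20. Hoxc10 was at -6.54 here and -4.33 between the controls, and Hoxb2 at -6.45 and -4.89. Such sizes are approximate, since the postnatal signals were near or below background. Scrg1 rose by 6.55 ± 0.17, Sparcl1 by 7.55 ± 0.25 and Pdgfra by 5.77 ± 0.19, each more than between the controls (limma interaction adjusted p = 5.84e-06, 5.96e-07 and 2.88e-09). Sox10 went from 189, above background on 2 arrays, to 25251. Gli3 fell by 2.52 ± 0.17, and its difference from the control change, 0.17 on the log2 scale, had an adjusted p of 0.648. All 20 mitosis and all 13 replication genes that fell between the controls fell here too, and in all 21 and 22 fell. Without postnatal control arrays 4 and 5, however, no gene of either list was called between the controls. The mitosis mean was 14.0 to 14.1 on the transduced and 11.2 to 11.5 on the transformed arrays. On the postnatal controls it was 13.8 to 13.9 on arrays 1 to 3 and 11.04 and 10.92 on arrays 4 and 5.

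The 5 neuronal and 5 matrix genes that rose between the controls also rose here, and 5 of the 7 Notch and 5 of the 8 Hedgehog genes that fell did so again. Over all genes, 58.3% of those that rose between the controls and 51.6% of those that fell did so again. Whether the Notch and Hedgehog lists differ from that share was not tested. The forebrain factors and several of the genes described above differed. Of the 6 forebrain factors that rose between the controls, Gsx1 was called higher in the modified cells (signal 86.6, below background, to 741), Otx1 was called lower (373 to 82.1, 1 array above background) and the other 4 were not called. Emx2 was at 0.69 ± 0.19, not called, and its change differed from that of the controls by -2.87 (limma interaction adjusted p = 2.24e-08). Bmp4 was at -1.02 ± 0.78, not called. Grb10 and Hmga2 went the other way and rose, by 2.10 ± 0.11 and 1.61 ± 0.52. So did Sparc (1.29 ± 0.17), while Tnc (0.28 ± 0.16) was not called. Of the 13 myelin genes 7 rose in both comparisons, which is near the share of all genes that rose. Myrf rose by 1.72 ± 0.57 in the modified cells, above background on 4 transduced arrays.

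**Figure D5:**
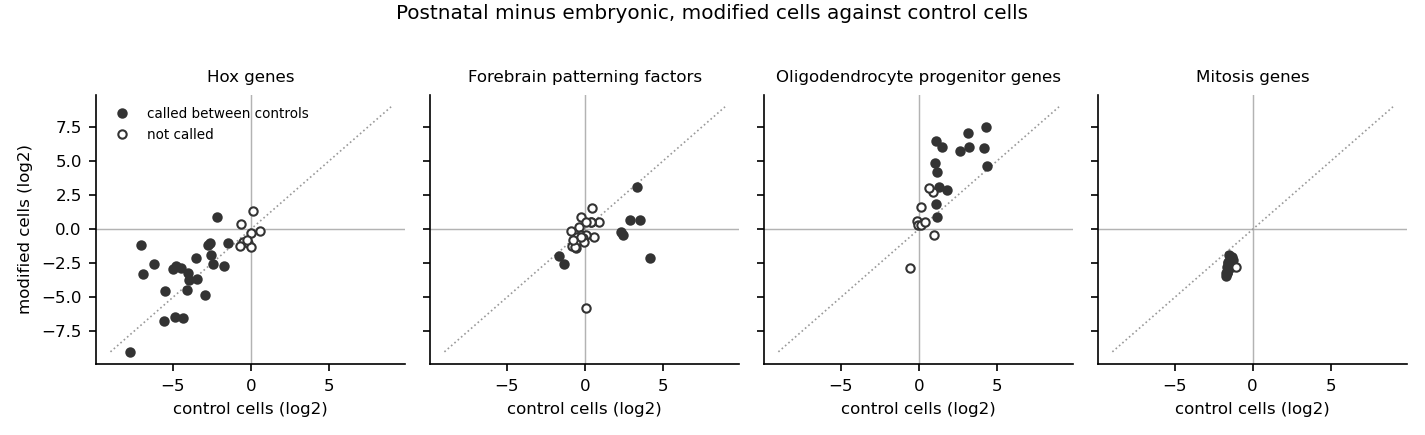
Log2 change of postnatal minus embryonic in control cells (horizontal axis) and in modified cells (vertical axis) for Hox genes, forebrain factors, oligodendrocyte progenitor genes and mitosis genes, 1 point per gene. Filled points were called between the controls, and the dotted line marks equal change. Filled Hox points lie in the lower left except 1 gene, Hoxa4, and Otx1 is the forebrain point at 4.20 and -2.11.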

How the data were processed

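The values are intensities, 1 linear signal per probe set and array, as the authors deposited them in the series' value table. Their software and normalization were not given in the sources used here. Probe sets were named through the platform annotation, which gave 1 symbol to 34945 of 45037, several to 932 and none to 9160. Each of 18193 genes was represented by the probe set naming it alone that was brightest on average over the 20 arrays. Log2(signal + 16) was fitted with limma 3.58.1 in R 4.3.3 (lmFit, eBayes with an intensity trend) as 4 group means over all 20 arrays, with Benjamini-Hochberg adjustment over all genes. The background level of an array was the 95th percentile of 27 bacterial control probe sets. The script was tested on simulated data. The 27 lists hold 541 genes, of which 35 were not measured by a probe set of their own. The comparison, its markers and the lists were chosen with earlier results of these data known.

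Genes were named by rule: the 12 largest rises and falls among called genes with a name whose groups did not overlap, the 8 marker genes, Hox genes above background, up to 5 genes of the smallest p per list and canonical members. Gpr17, Mbp, Nr2e1, Hey2 and some other examples within the lists fall outside it and were chosen after their values were seen. The alternatives were other offsets, scalings, probe set choices, filters and spread models, a replicate block, no fold limit and leaving out arrays.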

Additional observations from a re-analysis of the deposited data

Results flagged for a closer look

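For 260 groups of 5 arrays, both control groups of each of the 130 genes examined, the highest or the lowest array was compared with the rest by Dixon's criterion. In 15 (5.77%) 1 array stood apart, where chance gives about 1 in 20. In the embryonic controls these were Egr2 on array 3 (2628), Lims2 on array 1 (122), Ndrg2 on array 3 (6255), Igf2bp1 on array 4 (215), Grb10 on array 2 (33333), Nsg2 on array 1 (5306), Notch2 on array 5 (8660), Syt13 on array 1 (2793), Sparc on array 4 (32282) and Tek on array 5 (15.97). In the postnatal controls they were Hoxb3 on array 4 (25.4), Dlx1 on array 3 (30.4), Otx2 on array 5 (95.4), Fgfr3 on array 3 (2440) and Boc on array 3 (238). The Hoxb3, Dlx1, Otx2 and Tek values lie below background. The 2 postnatal arrays that stand apart together for division and myelin genes are not found by this criterion, which looks for 1 array.

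The age change of the modified cells was compared with that of the controls for 23 genes by an interaction term in limma, and 20 differed at an adjusted p under 0.05. The 23 genes were picked by hand with earlier results of these data known. The share over all genes was not counted, so 20 of 23 does not describe genes in general. The differences are fitted log2 values, modified minus control, and are approximate where a group is below background. Among the marker genes they were 5.89 for Hoxa7, 1.65 for Scrg1, 2.93 for Sparcl1, 2.08 for S100b, -5.50 for Bmp4 and 3.91 for Sox10. Among other position factors they were -6.31 for Otx1, -2.87 for Emx2, -1.43 for Zic1, 4.07 for Irx3, 3.53 for Irx5 and -6.20 for Egr2. Among lineage and timing genes they were 3.14 for Pdgfra, -2.59 for Myrf, -3.74 for Gfap, 4.17 for Tnc, 4.80 for Sparc, 5.78 for Hmga2, 6.71 for Grb10 and 3.39 for Igf2. Hoxa9 (-1.22, adjusted p = 0.0962), Gli3 (0.17, 0.648) and Gsx1 (-0.27, 0.811) did not pass.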

How the results depend on the processing

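The number of called genes was 1905 with quantile normalization, 1967 with 75th percentile centring, 1931 and 1732 with offsets of 1 and 64, 1697 with the mean of all probe sets and 1638 with the 10 control arrays only, and 1874 among 15196 genes above background on at least 5 arrays. It was 5830 with no fold threshold, 51.2% of them higher against 45.9% with it, and 3977 when every probe set was tested on its own (51.6% higher). Leaving out 1 array gave 1603 to 2110. With the replicate block 1918 genes were called. Samples of the same number did not deviate together (r of -0.031 to 0.0064, none of 5 pairs over 0.1). This gave no sign of pairing by number, but it cannot exclude a pairing. With the 10 control arrays only, 1 mitosis gene and 1 replication gene were called. Leaving out 1 array gave 11 to 21 mitosis and 1 to 21 replication genes. Without postnatal arrays 4 and 5 the counts were 0 mitosis, 0 replication, 9 oligodendrocyte progenitor, 8 myelin and 5 stem cell genes, and 24 Hox genes fell in each of these settings. Of 130 genes examined 104 kept their call under every alternative run on single genes, which were all but the one with no fold threshold and the one with every probe set on its own. Sign changes were seen in 4 genes, none of them called with all arrays: Olig1 (0.034 with quantile normalization), Olig2 (0.11 with quantile normalization, 0.040 without postnatal arrays 4 and 5, and -0.059 to 0.0047 leaving out 1 array), Mki67 (0.049 without arrays 4 and 5) and Hoxb7 (-0.32 without arrays 4 and 5, and -0.20 to 0.49 leaving out 1 array). The cause was not tested. The number of arrays limits precision, and signals near background limit fold changes to bounds.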
